A study of Mus musculus with 18 samples.

Results

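The 38 genes described here encode the machinery that copies DNA in S phase and the regulators that start it. They were taken by symbol from the 37991 gene identifiers of the count table, and all 38 were found. Of these, 37 passed the filter on low counts and were tested among 16824 genes. Fen1, the flap nuclease of the lagging strand, did not pass, with 2 reads at day 3, 1 read at day 7 and none in the other groups. The genes fall into 7 roles: 10 for origin licensing, 6 for origin firing, 6 for polymerases and primase, 7 for the clamp, its loader and the lagging strand, 3 for nucleotide supply, 3 for chromatin and 3 for control of the step from G1 into S phase.

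RNA was measured by sequencing of whole frozen kidney from male Balb/c mice weighing 25 to 29 g. There were 6 groups of 3 libraries: untreated mice, and mice killed 1, 2, 3, 7 or 14 days after a single intraperitoneal dose of folic acid at 250 mg/kg in 0.3 M sodium bicarbonate, which injures the renal tubule. No group received the bicarbonate alone, so the effect of the vehicle cannot be told apart from that of folic acid. Nothing in the labels says that the 3 libraries of a group came from separate animals, so p-values reflect only the spread among libraries, which may be technical.

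Replication starts at origins that are prepared in G1, when the origin recognition complex, Cdc6 and Cdt1 load the Mcm helicase onto DNA. In S phase, Cdc45 and the GINS complex switch the helicase on, primase and the polymerases copy both strands, and the sliding clamp Pcna holds the polymerases in place. Many of these genes are transcribed by E2F factors when G1 cyclins and their kinases, cyclin E among them, release E2F from the retinoblastoma protein. In the adult kidney few tubule cells divide, and surviving tubule cells re-enter the cell cycle after injury.

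Reads assigned to genes numbered 8.68 to 54.6 M (1e6 reads) per library, but 59.0 to 75.6% of them came from the mitochondrial genome. The 38 genes together held 1070 to 10449 reads per library, and 1 read was worth 0.0199 to 0.169 counts per M reads (CPM). Day 2 replicate 2 was the shallowest library, with 1982 reads in the 38 genes, and it also stood apart in a few of them, as given below. Levels are CPM after TMM scaling, in the order of replicates 1, 2 and 3. A gene was called changed at an edgeR quasi-likelihood adjusted p (Benjamini-Hochberg, two-sided) under 0.05, and the verbs rose and fell are kept for such genes. The biological coefficient of variation of the fit was 51.4%.

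Promoters of 31 of the 38 genes could be read from RefSeq (build GRCm38.p6), as windows from 250 bases before to 50 bases after a transcription start. They were searched on both strands for 4 spellings of the E2F site, TTTCCCGC, TTTGGCGC, TTTCGCGC and TTTGCCGC, of which TTTGGCGC and TTTCGCGC on opposite strands can overlap. At least 1 match lay in 13 of the 36 windows of these genes (36.1%), against 744 of all 32851 windows (2.26%). By call, 6 of the 13 genes with a window that rose on some day held a match (46.2%), and 7 of the 18 that did not rise (38.9%). The windows below show Mcm6, Mcm7 and Uhrf1, which rose and hold matches, Rrm2, which rose and holds none of the 4 spellings, and Orc1, which holds a match and was called on no day. Mcm7 and Uhrf1 each have another window, which holds no match and is not printed. They lie at chr1:128359656-128359955 on the minus strand (Mcm6), chr5:138171834-138172133 on the minus strand (Mcm7), chr17:56304063-56304362 on the plus strand (Uhrf1), chr12:24708004-24708303 on the plus strand (Rrm2) and chr4:108579204-108579503 on the plus strand (Orc1). Capitals mark the matches, and each window reads 5′ to 3′ along its gene.
Mcm6: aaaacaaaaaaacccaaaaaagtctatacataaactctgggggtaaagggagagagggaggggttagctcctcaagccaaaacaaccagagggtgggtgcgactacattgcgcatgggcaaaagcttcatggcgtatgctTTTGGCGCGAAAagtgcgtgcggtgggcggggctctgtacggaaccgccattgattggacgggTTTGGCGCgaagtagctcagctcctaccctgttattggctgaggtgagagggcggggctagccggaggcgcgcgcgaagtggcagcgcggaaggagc
Mcm7: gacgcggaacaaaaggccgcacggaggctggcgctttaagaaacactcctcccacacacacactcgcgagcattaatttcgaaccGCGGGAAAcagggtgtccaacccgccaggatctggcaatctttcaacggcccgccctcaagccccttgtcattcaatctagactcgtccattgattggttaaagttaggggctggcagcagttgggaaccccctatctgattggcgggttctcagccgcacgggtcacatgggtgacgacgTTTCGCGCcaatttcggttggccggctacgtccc
Uhrf1: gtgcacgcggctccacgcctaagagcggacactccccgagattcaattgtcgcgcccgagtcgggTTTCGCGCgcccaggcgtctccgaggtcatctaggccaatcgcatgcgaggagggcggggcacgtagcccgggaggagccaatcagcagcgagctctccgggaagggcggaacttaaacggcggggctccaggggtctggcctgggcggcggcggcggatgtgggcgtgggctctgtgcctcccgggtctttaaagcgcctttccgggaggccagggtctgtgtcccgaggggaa
Rrm2: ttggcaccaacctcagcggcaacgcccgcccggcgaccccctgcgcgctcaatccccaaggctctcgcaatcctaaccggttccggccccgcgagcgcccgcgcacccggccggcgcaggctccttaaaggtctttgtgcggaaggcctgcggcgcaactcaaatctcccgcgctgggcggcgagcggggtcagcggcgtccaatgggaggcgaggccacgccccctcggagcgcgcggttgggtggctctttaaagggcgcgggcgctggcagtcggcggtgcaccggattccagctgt
Orc1: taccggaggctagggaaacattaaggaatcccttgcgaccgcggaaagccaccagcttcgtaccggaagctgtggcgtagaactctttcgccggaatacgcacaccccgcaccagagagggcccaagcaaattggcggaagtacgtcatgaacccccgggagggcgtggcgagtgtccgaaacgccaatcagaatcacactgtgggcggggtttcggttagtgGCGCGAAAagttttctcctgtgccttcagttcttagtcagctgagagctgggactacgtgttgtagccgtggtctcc
The Mcm6 window holds a pair of overlapping matches that begin 110 and 106 bases before the start, and another that begins 47 bases before it. A match describes these letters only, and no factor binding was measured.

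**Figure D1:**
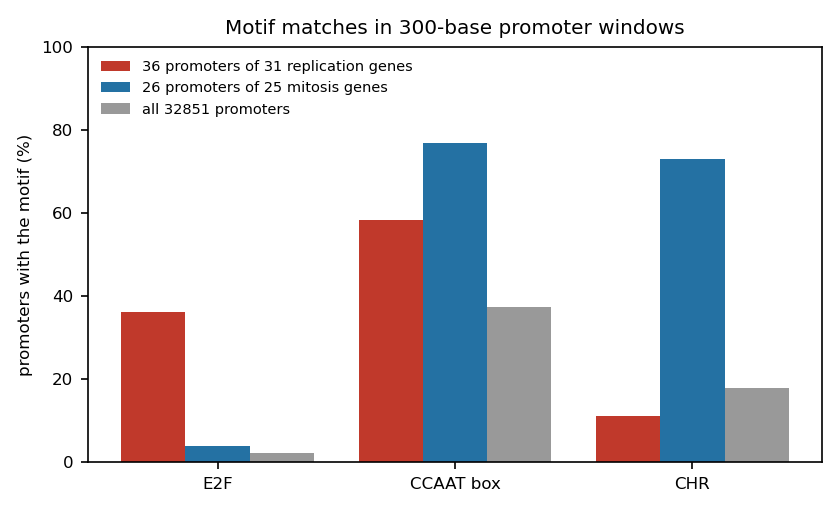
Share of 300-base promoter windows (y axis, %) with an E2F, CCAAT box or CHR match, for the replication genes, 30 mitosis genes of which 25 had a window, and all windows. E2F matches lay in 36.1% of replication gene windows and 3.85% of mitosis gene windows, and the order was the reverse for the CHR element, at 11.1% and 73.1%.

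Motifs of other kinds were counted in the same windows. The CHR element TTTGAA, known from promoters of mitotic genes, was present in 4 of 36 replication gene windows (11.1%) and 19 of 26 mitosis gene windows (73.1%), against 17.9% of all windows. The CCAAT box, searched as CCAAT, was present in 58.3% and 76.9%, against 37.4% of all windows. These shares are descriptions of letters and were not tested.

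The summed level of the 38 genes had its highest mean on day 2 and lay near that of untreated kidney at day 14, while 23 of the genes were called on no day. The sum was 67.6, 70.5 and 67.0 CPM in the untreated libraries. On day 1 it was 206, 128 and 137, on day 2 213, 335 and 203 and on day 3 152, 109 and 147 CPM. It came down to 103, 112 and 87.5 on day 7 and 79.5, 57.2 and 91.7 CPM on day 14. All libraries of days 1, 2, 3 and 7 and 2 of the 3 at day 14 lay above the untreated ones. The untreated mean was 68.4 ± 1.85 CPM (mean ± SD, n = 3, as for all means below). Means after folic acid were 157 ± 42.7 (day 1), 250.3 ± 73.5 (day 2), 136 ± 23.4 (day 3), 101 ± 12.4 (day 7) and 76.1 ± 17.5 (day 14). In whole tissue, fewer cells of a type and less RNA per cell cannot be told apart.

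**Figure D2:**
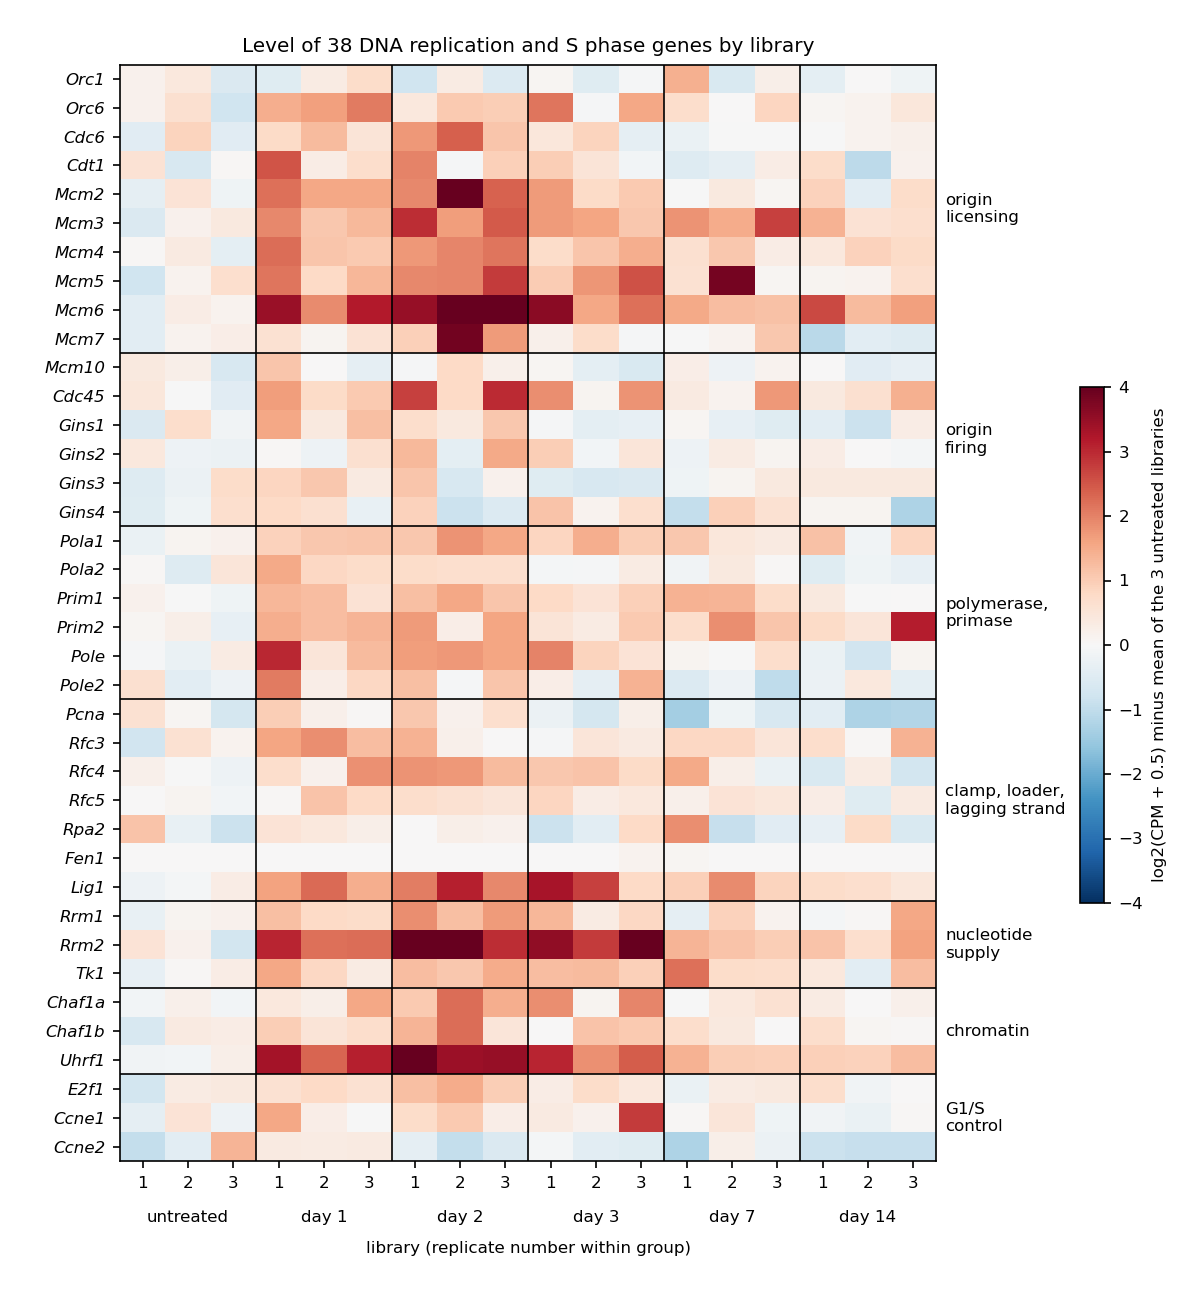
Level of the 38 genes (rows, by role) in the 18 libraries (columns, by group) as log2(CPM + 0.5) minus the mean of the 3 untreated libraries, with the colour limited to 4 on either side. The red block spans days 1 to 3 for most licensing genes, Rrm2 and Uhrf1, single dark cells stand for 1 library (Mcm5 in day 7 replicate 2, Prim2 in day 14 replicate 3), and Fen1 is blank.

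At day 1, 9 of the 37 genes tested (24.3%) rose and none fell, where 5.09% of all genes tested were called higher and 5.56% lower. The median log2 fold change was 1.41, against 0.05 over all genes tested. The 9 were Orc6, Mcm3, Mcm4, Mcm6, Prim1, Pole, Lig1, Rrm2 and Uhrf1. By unadjusted p under 0.05 there were 20, and 21 had day 1 libraries all above the untreated ones (16.1% of all genes). DESeq2 called 13, where it called 14.1% of all genes in either direction. For counts by unadjusted p, here and below, the share over all genes is not given. Such counts therefore do not set the replication genes apart from other genes. Leaving out untreated replicate 1 brought the count to 3, untreated replicate 3 to 5 and day 1 replicate 1 to 4. The share of all genes called in either direction went from 10.7% to 6.69, 7.12 and 6.74% in these fits. Calls of Mcm6, Rrm2 and Uhrf1 held whichever of the 18 libraries was left out.

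At day 2, 14 of 37 (37.8%) rose and none fell, where 7.19% of all genes were called higher and 5.98% lower. The median log2 fold change was 1.61, against 0.03 over all genes. Mcm2, Mcm7, Cdc45, Pola1, Rrm1 and Chaf1a were called for the first time, and Orc6 was not called. DESeq2 called 19, where it called 17.3% of all genes in either direction. No overlap with the untreated libraries was seen for 23 genes, all higher (13.2% of all genes). The count was 9 without untreated replicate 3 and 10 without day 2 replicate 2. The share of all genes called in either direction went from 13.2% to 8.24 and 8.84% in these fits. Whichever library was left out, 7 calls held (Mcm2, Mcm3, Mcm4, Mcm6, Lig1, Rrm2 and Uhrf1).

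At day 3, 5 genes were still called higher (13.5% of 37; Mcm3, Mcm6, Lig1, Rrm2 and Uhrf1), where 4.18% of all genes were and 3.43% lower, and the median log2 fold change was 0.96 against 0.07. DESeq2 called 9. At day 7, 3 were called higher (8.11% of 37; Mcm3, Prim1 and Uhrf1), where 3.87% of all genes were, and the median was 0.51 against 0.06. DESeq2 called 7, where it called 12.1% of all genes in either direction. By edgeR 1 gene was left without untreated replicate 1 or untreated replicate 2. The share of all genes called in either direction went from 7.72% to 4.06 and 4.18% in those fits. At day 14 none was called by edgeR, where 1.24% of all genes were higher and 0.309% lower. At that time 5 were higher and 2 lower by unadjusted p under 0.05, and the median was 0.20 against 0.04. DESeq2 called 3, where it called 5.66% of all genes in either direction. Day 14 libraries lay wholly above the untreated ones for 7 genes (11.7% of all genes) and wholly below for Mcm7 (10.2% of all genes). Without day 14 replicate 2 edgeR called 2, and without any of 5 libraries of other times it called 1 (day 1 replicate 2, day 2 replicate 1, day 2 replicate 2, day 3 replicate 1 or day 3 replicate 2). The share of all genes called in either direction was 1.98% without day 14 replicate 2 and 1.26 to 1.95% without one of the others. The 5 comparisons share the untreated libraries, so they are not independent of each other.

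Onset, as the first day called higher, was day 1 for 9 genes and day 2 for 6, and 23 genes, Fen1 among them, were called on no day. The last day called was day 1 for Orc6 and day 2 for 8 genes (Mcm2, Mcm4, Mcm7, Cdc45, Pola1, Pole, Rrm1 and Chaf1a). It was day 3 for Mcm6, Lig1 and Rrm2, and day 7 for Mcm3, Prim1 and Uhrf1, of which Prim1 was not called at day 3. The highest group mean fell on day 2 for 17 genes, day 1 for 10, day 3 for 5, day 7 for 4, day 14 for Prim2 and untreated kidney for Ccne2. By the group median the highest was day 2 for 23. Across all 6 groups, 11 genes differed (Mcm2, Mcm3, Mcm4, Mcm6, Mcm7, Prim1, Pole, Pcna, Lig1, Rrm2 and Uhrf1), where 19.7% of all genes did, and DESeq2 called 23. The share of all genes that DESeq2 called across the groups is not given here.

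No step between neighbouring times was called for these genes by edgeR. From day 1 to day 2 edgeR called none of the 37 genes, where 0.0416% of all genes were called higher and 0.0178% lower. DESeq2 called 2, where it called 3.07% of all genes, and 4 passed by unadjusted p under 0.05. Those 4 were Mcm2, Mcm6, Mcm7 and Rrm2. Day 2 libraries lay wholly above those of day 1 for Mcm6, Mcm7, Uhrf1 and E2f1 (5.87% of all genes) and wholly below for Orc6, Pola2, Rpa2 and Ccne2 (7.96% of all genes). Into day 3 none was called, where 0.22% of all genes were higher and 0.0297% lower. DESeq2 called 4, where it called 4.45% of all genes, and 7 were lower by unadjusted p. Without day 2 replicate 1 or day 2 replicate 3 the edgeR count was 2, where 1.53 and 1.22% of all genes were called. Day 3 libraries lay wholly below those of day 2 for 10 genes (6.56% of all genes). The count from day 1 to day 2 was 1 without day 2 replicate 1, where 0.891% of all genes were called. From day 3 to day 7 none was called (0.0178% of all genes higher) and 8 passed by unadjusted p. DESeq2 called 2, where it called 1.25% of all genes. Day 7 libraries lay wholly below those of day 3 for Mcm2, Mcm6, Rrm2 and Uhrf1 (7.33% of all genes) and wholly above for Gins3 (7.24%). From day 7 to day 14 none was called by edgeR (0.00594% of all genes higher and 0.0119% lower) or by DESeq2, and 4 passed by unadjusted p. Day 14 libraries lay wholly below those of day 7 for Mcm3, Mcm7, Pola2, Prim1 and Lig1 (6.33% of all genes) and wholly above for Gins3 (6.1%).

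Falls from day 2 were called over longer steps. By day 7, 5 genes had fallen from day 2 and none had risen, where 2.44% of all genes fell and 2.77% rose. These were Mcm2, Mcm6, Mcm7, Rrm2 and Uhrf1. Day 7 libraries lay wholly below those of day 2 for 16 genes (9.66% of all genes). By day 14, 10 had fallen from day 2 and none had risen, where 4.74% of all genes fell and 4.68% rose, and the other 5 were Prim1, Pole, Pcna, Rfc4 and Lig1. Pcna and Rfc4 were not called higher than untreated on any day, so their falls follow no called rise. Day 14 libraries lay wholly below those of day 2 for 20 genes (10.9% of all genes). The median log2 fold changes were -1.29 and -1.45, against 0.01 and 0.03 over all genes. The count to day 7 was 3 without day 7 replicate 2. The count to day 14 was 5 without day 2 replicate 2 or day 14 replicate 2, and 6 without day 14 replicate 1 or day 14 replicate 3. Without day 2 replicate 2, 2.53% of all genes fell to day 14. For the other fits of these counts the share of all genes is not given here.

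Of the 10 origin licensing genes, 4 rose on day 1, 5 on day 2, 2 on day 3 and 1 on day 7, with median log2 fold changes of 1.83, 2.69, 1.28 and 0.60. Of all genes tested, 5.09, 7.19, 4.18 and 3.87% were called higher on these days. A count of 1 gene in a role, here or below, cannot be set apart from such shares. Mcm6 (ENSMUSG00000026355), a subunit of the Mcm helicase, stood at 0.217, 0.69 and 0.564 CPM in the untreated libraries, 10.1, 3.13 and 8.21 at day 1 and 10.3, 32.1 and 17.6 at day 2. It stood at 11.3, 2.35 and 3.99 at day 3, 2.27, 1.78 and 1.67 at day 7 and 5.51, 1.82 and 2.53 at day 14. Every treated library lay above all 3 untreated ones, and the day 2 libraries were the highest apart from day 3 replicate 1, which lay above day 2 replicate 1. Mcm6 rose 14-fold at day 1 (log2 fold change 3.81, SE 0.69, edgeR adjusted p = 0.00129) and 39.1-fold at day 2 (log2 fold change 5.29, SE 0.73, edgeR adjusted p = 0.000111). At day 3 the log2 fold change was 3.53 (edgeR adjusted p = 0.00379), and 2.65 without day 3 replicate 1. It fell 6.05-fold from day 2 to day 14 (edgeR adjusted p = 0.0154), a call lost without day 2 replicate 2 or day 14 replicate 2 or 3 (adjusted p 0.0581 to 0.0728). At day 14 it was still 3.29 ± 1.96 CPM against 0.49 ± 0.244 in untreated kidney, just outside the threshold (edgeR adjusted p = 0.0501).

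Mcm2 (ENSMUSG00000002870), another helicase subunit, stood at 1.63, 3.47 and 1.94 CPM in the untreated libraries, 12, 7.45 and 7.52 at day 1 and 9.91, 85.9 and 13.6 at day 2. Its later values were 8.52, 4.17 and 5.14 at day 3, 2.24, 3.14 and 2.43 at day 7 and 4.68, 1.54 and 4.08 at day 14. All day 1, day 2 and day 3 libraries lay above the untreated ones, and day 2 replicate 2 lay far above its 2 neighbours. Mcm2 rose 15.2-fold at day 2 (log2 fold change 3.92, SE 0.70, edgeR adjusted p = 0.00109) and was not called at day 1 (log2 fold change 1.92, edgeR adjusted p = 0.0663). Without day 2 replicate 2 its log2 fold change at day 2 was 2.29 (edgeR adjusted p = 0.00707). On the log2 scale it fell by 3.79 from day 2 to day 7, and by 2.17 without that library. To day 14 it fell by 3.39, and by 1.77 without it.

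Mcm7 (ENSMUSG00000029730) stood at 2.61, 4.09 and 4.45 CPM in the untreated libraries, 5.77, 4.0 and 5.71 at day 1 and 7.56, 59.2 and 12.9 at day 2. At the later times it stood at 4.25, 6.4 and 3.46 at day 3, 3.62, 4.03 and 8.26 at day 7 and 1.47, 2.6 and 2.36 at day 14. The day 2 libraries lay above the untreated ones, the day 1 libraries overlapped them, and the day 14 libraries all lay below them by a small margin. Mcm7 rose 7.05-fold at day 2 (log2 fold change 2.82, SE 0.61, edgeR adjusted p = 0.00468), and without day 2 replicate 2 the log2 fold change was 1.45 and the gene was not called (edgeR adjusted p = 0.0589). It fell 12.2-fold from day 2 to day 14 (edgeR adjusted p = 0.00172), by 3.61 on the log2 scale, and by 2.25 without that library. Its fall from day 2 to day 7 was not called without day 2 replicate 2 or day 7 replicate 1 or 2 (adjusted p 0.116 to 0.305). Exons of Ap4m1 on the other strand cover 7.25% of Mcm7 exon bases, and the strand setting of the counting is not given in the sources used here. Such overlap is larger for Ccne2 (17.4%, Ints8), Rfc4 (12.7%, Eif4a2), Orc1 (10.8%, Gm12743) and Rfc5 (10.7%, Wsb2). It is larger still for Gins2, Chaf1a and Fen1, as given below.

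Mcm3 (ENSMUSG00000041859) was called at each of days 1, 2, 3 and 7, as was Uhrf1. Its levels were 0.109, 0.523 and 0.689 CPM in the untreated libraries, 2.93, 1.42 and 1.73 at day 1 and 6.48, 2.37 and 4.5 at day 2, and they were 2.45, 2.2 and 1.39 at day 3, 2.63, 2.03 and 5.55 at day 7 and 1.86, 0.852 and 0.937 at day 14. Every treated library lay above all 3 untreated ones. It rose 4.53-fold at day 1 (log2 fold change 2.18, SE 0.64, edgeR adjusted p = 0.0345), 10.1-fold at day 2 (edgeR adjusted p = 0.00245), 4.52-fold at day 3 (edgeR adjusted p = 0.0436) and 7.64-fold at day 7 (edgeR adjusted p = 0.00921). The calls at days 2 and 7 held in each fit that left out 1 library. The day 1 call was lost without untreated replicate 1 or 2 or day 1 replicate 1 or 3 (adjusted p 0.0534 to 0.129), and the day 3 call without any untreated library, day 1 replicate 2 or 3, day 2 replicate 3, day 3 replicate 1 or 2, day 7 replicate 1 or day 14 replicate 2 (adjusted p 0.0502 to 0.153).

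Mcm4 (ENSMUSG00000022673) stood at 2.45, 3.21 and 1.69 CPM in the untreated libraries, 13.1, 5.67 and 5.49 at day 1 and 9.19, 10.6 and 12.3 at day 2, then at 4.28, 5.76 and 7.32 at day 3, 3.95, 5.63 and 3.05 at day 7 and 3.34, 4.99 and 4.4 at day 14. All treated libraries of days 1, 2, 3 and 14 lay above the untreated ones, and 1 of day 7 did not. Of the licensing genes called on day 2 it had the smallest change, 4.33-fold (log2 fold change 2.11, SE 0.43, edgeR adjusted p = 0.00293), after 3.27-fold at day 1 (edgeR adjusted p = 0.0129). The day 1 call was lost without untreated replicate 1 or 3 or day 1 replicate 1 (adjusted p 0.0506 to 0.104). Orc6 (ENSMUSG00000031697), a subunit of the origin recognition complex, stood at 1.3, 2.0 and 0.438 CPM in the untreated libraries, 3.94, 4.59 and 6.3 at day 1 and 1.67, 2.87 and 2.69 at day 2. Its later values were 6.6, 1.06 and 4.28 at day 3, 2.14, 1.14 and 2.46 at day 7 and 1.21, 1.3 and 1.71 at day 14. Only its day 1 libraries lay wholly above the untreated ones, where it rose 3.89-fold (log2 fold change 1.96, SE 0.61, edgeR adjusted p = 0.0459), and this call was lost without untreated replicate 1 or 3, any day 1 library, day 2 replicate 1 or 3, day 3 replicate 3, day 7 replicate 1 or 3 or any day 14 library (adjusted p 0.0501 to 0.17).

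The other 4 licensing genes were not called on any day. Mcm5 (ENSMUSG00000005410), the remaining helicase subunit, stood at 0.272, 0.999 and 1.63 CPM in the untreated libraries, 5.51, 1.82 and 2.9 at day 1 and 4.63, 4.73 and 8.92 at day 2, then at 2.22, 4.09 and 7.35 at day 3, 1.58, 18.5 and 0.937 at day 7 and 0.954, 0.973 and 1.67 at day 14. Its libraries of days 1, 2 and 3 lay above the untreated ones, and day 7 replicate 2 was the highest of all 18, with the other 2 of that day inside the untreated range. Its log2 fold change was 2.66 at day 2 (edgeR adjusted p = 0.0582) and 2.86 at day 7 (edgeR adjusted p = 0.0598).

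Cdc6 (ENSMUSG00000017499), which loads the helicase together with Cdt1, stood at 0, 0.761 and 0 CPM in the untreated libraries, 0.656, 1.12 and 0.477 at day 1 and 1.75, 3.04 and 0.961 at day 2, and then at 0.431, 0.758 and 0.0262 at day 3, 0.0658, 0.178 and 0.173 at day 7 and 0.173, 0.243 and 0.285 at day 14. Its day 2 libraries lay above the untreated ones, on 129 reads in all, but the test did not pass (log2 fold change 2.72, edgeR adjusted p = 0.139). Cdt1 (ENSMUSG00000006585) stood at 1.58, 0.38 and 0.94 CPM in the untreated libraries, 7.35, 1.19 and 1.73 at day 1 and 4.93, 0.845 and 2.15 at day 2, and then at 2.22, 1.48 and 0.787 at day 3, 0.46, 0.57 and 1.18 at day 7 and 1.78, 0.162 and 1.06 at day 14. Its highest libraries were the first replicates of days 1 and 2, and each day overlapped the untreated range. Orc1 (ENSMUSG00000028587), the largest subunit of the origin recognition complex, stood at 2.66, 3.33 and 1.38 CPM in the untreated libraries, 1.53, 3.04 and 4.2 at day 1 and 1.14, 3.04 and 1.42 at day 2, then at 2.52, 1.52 and 2.26 at day 3, 7.14, 1.35 and 2.81 at day 7 and 1.65, 2.39 and 2.0 at day 14. It overlapped the untreated range on every day, with 7.14 CPM in day 7 replicate 1 as its highest value, and its day 2 log2 fold change was -0.47 (edgeR adjusted p = 0.672).

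**Figure D3:**
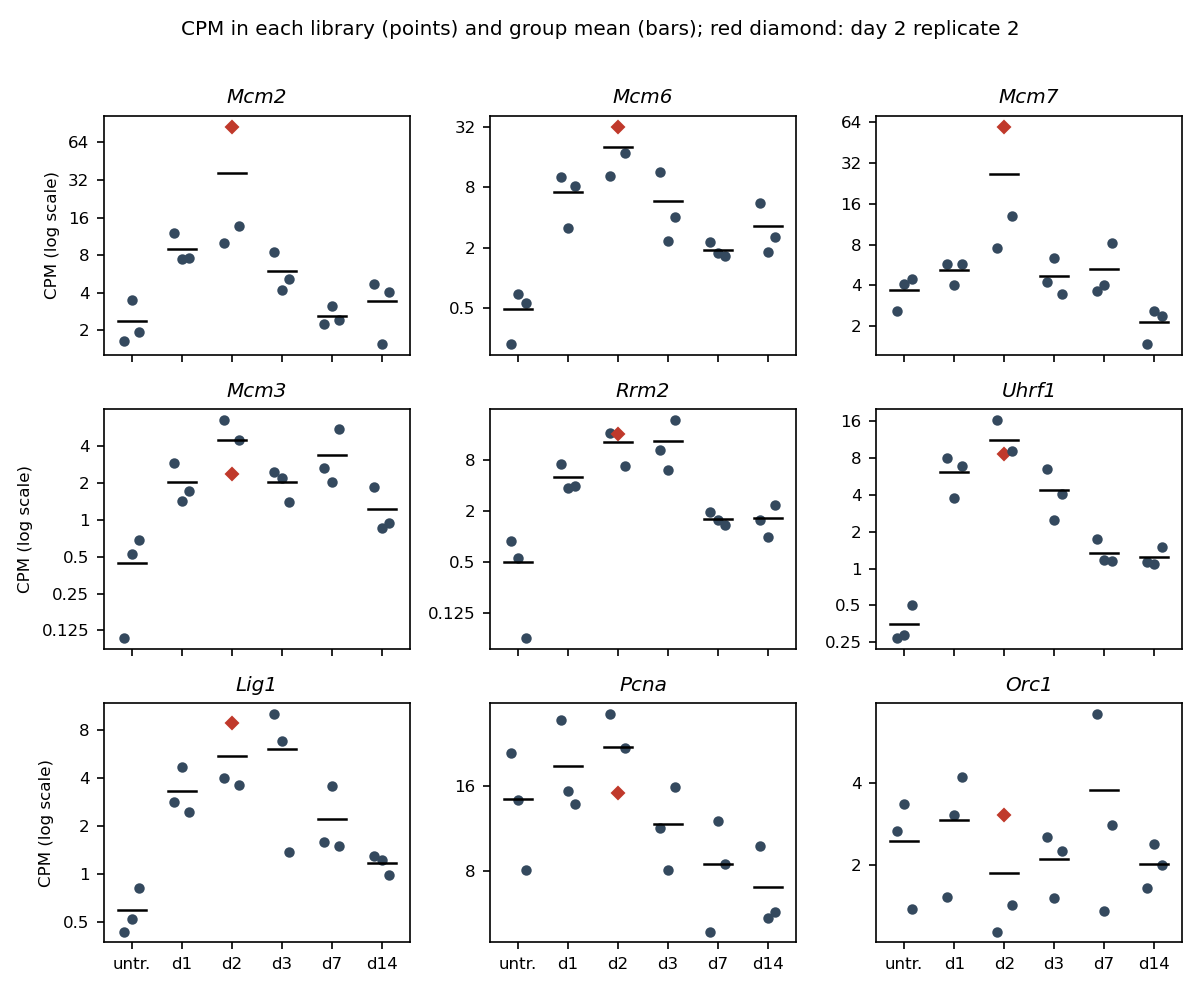
CPM on a log2 axis (y) in each library (points) and the group mean (bars) for 9 genes in the 6 groups (x axis), with day 2 replicate 2 as a red diamond. That library lies far above its neighbours for Mcm2 (85.9 CPM) and Mcm7 (59.2 CPM), within or below their range for Mcm3 and Uhrf1, and Orc1 shows no group apart from the rest.

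Among the 6 origin firing genes only Cdc45 was called, at day 2, where 7.19% of all genes were called higher. Cdc45 (ENSMUSG00000000028), which joins the Mcm helicase and GINS in the active helicase, stood at 0.435, 0.166 and 0 CPM in the untreated libraries, 1.66, 0.652 and 0.915 at day 1 and 4.04, 0.676 and 4.84 at day 2, then at 1.96, 0.227 and 1.84 at day 3, 0.362, 0.249 and 1.73 at day 7 and 0.39, 0.568 and 1.3 at day 14. The day 1 and day 2 libraries lay above the untreated ones, and day 2 replicate 2 was the lowest of its group. It rose 15.9-fold at day 2 (log2 fold change 3.99, SE 1.09, edgeR adjusted p = 0.0201), against 15 reads in the whole untreated group, so the size of the fold is uncertain, and the log2 fold change was 4.93 without untreated replicate 1. The call was lost without untreated replicate 2 or 3 or day 2 replicate 3 (adjusted p 0.0549 to 0.0843).

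Of the GINS genes, Gins1, Gins2 and Gins3 had fewer reads than Gins4. Gins1 (ENSMUSG00000027454) stood at 0.109, 0.975 and 0.313 CPM in the untreated libraries, 2.14, 0.675 and 1.55 at day 1 and 0.978, 0.676 and 1.38 at day 2, then at 0.365, 0.189 and 0.21 at day 3, 0.46, 0.214 and 0.139 at day 7 and 0.173, 0 and 0.611 at day 14. Gins2 (ENSMUSG00000031821) stood at 0.381, 0.0713 and 0.0626 CPM in the untreated libraries, 0.175, 0.0675 and 0.517 at day 1 and 1.12, 0 and 1.38 at day 2, then at 0.796, 0.114 and 0.42 at day 3, 0.0658, 0.321 and 0.208 at day 7 and 0.304, 0.162 and 0.122 at day 14, and exons of Gse1 on the other strand cover 67.3% of its exon bases. For both genes the highest libraries belonged to day 1 or day 2, but each day overlapped the untreated range. Gins3 (ENSMUSG00000031669) stood at 0.0544, 0.166 and 0.814 CPM in the untreated libraries, 0.918, 1.15 and 0.517 at day 1 and 1.18, 0 and 0.384 at day 2, then at 0.0663, 0 and 0.0262 at day 3, 0.197, 0.356 and 0.52 at day 7 and 0.52, 0.527 and 0.53 at day 14, with 3 reads in all at day 3. Gins4 (ENSMUSG00000031546) stood at 1.03, 1.38 and 2.88 CPM in the untreated libraries, 3.19, 2.83 and 1.23 at day 1 and 3.51, 0.676 and 0.961 at day 2, then at 4.25, 1.86 and 2.91 at day 3, 0.592, 3.67 and 2.78 at day 7 and 1.82, 1.82 and 0.408 at day 14. Neither showed a day whose libraries all lay outside the untreated range. Mcm10 (ENSMUSG00000026669), which helps to activate the helicase, stood at 1.96, 1.71 and 0.689 CPM in the untreated libraries, 3.5, 1.39 and 0.954 at day 1 and 1.3, 2.7 and 1.65 at day 2, then at 1.46, 0.909 and 0.708 at day 3, 1.74, 1.1 and 1.56 at day 7 and 1.39, 0.852 and 0.978 at day 14. It too overlapped the untreated range on every day, and the log2 fold changes at day 2 of these 5 genes ran from 0.03 (Gins4) to 2.38 (Gins2, edgeR adjusted p = 0.192).

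Of the 6 polymerase and primase genes, 2 rose at day 1, 3 at day 2 and 1 at day 7, where 5.09, 7.19 and 3.87% of all genes were called higher. Pole (ENSMUSG00000007080), the catalytic subunit of the leading strand polymerase epsilon, stood at 1.52, 1.24 and 2.13 CPM in the untreated libraries, 16.6, 2.41 and 4.59 at day 1 and 6.24, 6.42 and 5.77 at day 2. It then stood at 7.79, 3.37 and 2.55 at day 3, 1.78, 1.57 and 2.91 at day 7 and 1.26, 0.73 and 1.75 at day 14. Libraries of days 1, 2 and 3 all lay above the untreated ones, and day 1 replicate 1 was the highest of the 18. Pole rose 4.83-fold at day 1 (log2 fold change 2.27, SE 0.63, edgeR adjusted p = 0.0248), and without day 1 replicate 1 the log2 fold change was 1.11 (edgeR adjusted p = 0.269). It rose 3.79-fold at day 2 (log2 fold change 1.92, SE 0.62, edgeR adjusted p = 0.0479), a call close to the threshold. The day 1 call was lost without any untreated library or day 1 replicate 1 (adjusted p 0.0506 to 0.269), and the day 2 call without any untreated library, day 1 replicate 3, any day 2 library, day 3 replicate 2, any day 7 library or any day 14 library (adjusted p 0.0505 to 0.158). Pole fell 4.91-fold from day 2 to day 14 (edgeR adjusted p = 0.0279), a call lost without day 2 replicate 2 or day 14 replicate 1 or 2 (adjusted p 0.0602 to 0.113).

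Prim1 (ENSMUSG00000025395), the catalytic primase subunit, stood at 2.01, 1.74 and 1.5 CPM in the untreated libraries, 5.07, 4.81 and 2.86 at day 1 and 4.63, 6.08 and 4.34 at day 2, then at 3.38, 2.8 and 3.86 at day 3, 5.43, 5.24 and 3.19 at day 7 and 2.43, 1.7 and 1.75 at day 14. Its libraries of days 1, 2, 3 and 7 all lay above the untreated ones, and those of day 14 overlapped them. It rose 2.42-fold at day 1 (log2 fold change 1.28, SE 0.39, edgeR adjusted p = 0.0437), 2.84-fold at day 2 (edgeR adjusted p = 0.0166) and 2.63-fold at day 7 (edgeR adjusted p = 0.0363), and was not called at day 3 (log2 fold change 0.93, edgeR adjusted p = 0.159). These were the smallest called folds of the 38 genes against untreated kidney. The calls were lost without any untreated library, day 1 replicate 1 or 2, day 2 replicate 1, day 3 replicate 1 or 3, day 7 replicate 1 or 2 or day 14 replicate 1 or 2 (adjusted p 0.0504 to 0.142) for day 1, without untreated replicate 2 or 3 or day 2 replicate 2 (adjusted p 0.0545 to 0.0719) for day 2 and without any untreated library or day 7 replicate 1 or 2 (adjusted p 0.0791 to 0.123) for day 7. Prim1 fell 2.54-fold from day 2 to day 14 (edgeR adjusted p = 0.0391), a call lost without any day 2 library or any day 14 library (adjusted p 0.0535 to 0.127).

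Pola1 (ENSMUSG00000006678), the catalytic subunit of polymerase alpha, stood at 3.15, 4.33 and 4.45 CPM in the untreated libraries, 7.83, 8.77 and 9.07 at day 1 and 8.93, 15 and 12.6 at day 2, then at 7.6, 11.7 and 8.37 at day 3, 8.91, 5.63 and 5.2 at day 7 and 9.45, 3.53 and 7.5 at day 14. Libraries of days 1, 2, 3 and 7 lay above the untreated ones, and it rose 3.04-fold at day 2 (log2 fold change 1.61, SE 0.39, edgeR adjusted p = 0.0103), a call lost without untreated replicate 1 (adjusted p 0.054). Pola2 (ENSMUSG00000024833), its accessory subunit, stood at 1.36, 0.761 and 2.0 CPM in the untreated libraries, 4.68, 2.7 and 2.51 at day 1 and 2.49, 2.37 and 2.34 at day 2, then at 1.23, 1.25 and 1.76 at day 3, 1.15, 1.85 and 1.35 at day 7 and 0.781, 1.09 and 0.937 at day 14. The day 1 and day 2 libraries lay above the untreated ones, without a call (edgeR adjusted p = 0.0999 and 0.29). Prim2 (ENSMUSG00000026134), the large primase subunit, stood at 0.816, 0.975 and 0.501 CPM in the untreated libraries, 2.93, 2.43 and 2.68 at day 1 and 3.53, 1.01 and 3.19 at day 2, then at 1.29, 1.06 and 2.07 at day 3, 1.55, 4.03 and 2.22 at day 7 and 1.6, 1.26 and 10.4 at day 14. Every treated library lay above all 3 untreated ones, and its highest value was day 14 replicate 3, far from the other 2 of that day. Its log2 fold change was 1.79 at day 1 and 2.51 at day 14 (edgeR adjusted p = 0.121 and 0.0862). Pole2 (ENSMUSG00000020974), an accessory subunit of polymerase epsilon, stood at 2.17, 0.785 and 1.0 CPM in the untreated libraries, 6.74, 1.6 and 2.55 at day 1 and 3.46, 1.18 and 3.27 at day 2, then at 1.56, 0.834 and 3.99 at day 3, 0.691, 0.998 and 0.347 at day 7 and 0.954, 1.82 and 0.815 at day 14, and overlapped the untreated range on every day.

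In the group of the clamp, its loader and the lagging strand, Lig1 was the only gene that rose against untreated kidney, while Pcna and Rfc4 fell from day 2 to day 14. Lig1 (ENSMUSG00000056394), the ligase that joins lagging strand fragments, stood at 0.435, 0.523 and 0.814 CPM in the untreated libraries, 2.8, 4.63 and 2.43 at day 1 and 3.99, 8.79 and 3.61 at day 2, then at 10.02, 6.74 and 1.36 at day 3, 1.58, 3.53 and 1.49 at day 7 and 1.3, 1.22 and 0.978 at day 14. Every treated library lay above all 3 untreated ones. It rose 5.59-fold at day 1 (log2 fold change 2.48, SE 0.64, edgeR adjusted p = 0.0171), 9.13-fold at day 2 (edgeR adjusted p = 0.00355) and 10.3-fold at day 3 (edgeR adjusted p = 0.00417), where day 3 replicate 3 stayed far below the other 2. The calls at days 2 and 3 held in each fit that left out 1 library, and the day 1 call was lost without untreated replicate 1 or 2 or day 1 replicate 2 (adjusted p 0.0698 to 0.0751). Lig1 fell 4.6-fold from day 2 to day 14 (edgeR adjusted p = 0.0335), a call lost without day 2 replicate 2 or any day 14 library (adjusted p 0.0853 to 0.132).

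Pcna (ENSMUSG00000027342), the sliding clamp and a common marker of dividing cells, stood at 20.9, 14.2 and 8.02 CPM in the untreated libraries, 27.3, 15.3 and 13.8 at day 1 and 28.7, 15 and 21.8 at day 2, then at 11.3, 8.07 and 15.8 at day 3, 4.87, 11.9 and 8.43 at day 7 and 9.8, 5.43 and 5.71 at day 14. Untreated, day 1 and day 2 libraries overlapped widely, and the day 14 libraries all lay below those of day 2. No day was called against untreated kidney (log2 fold change 0.61, edgeR adjusted p = 0.395 at day 2), but Pcna fell 3.14-fold from day 2 to day 14 (log2 fold change -1.65, SE 0.44, edgeR adjusted p = 0.0242), a call lost without day 2 replicate 1 or day 14 replicate 2 or 3 (adjusted p 0.0781 to 0.101). The mouse genome holds the processed pseudogenes Pcna-ps1 and Pcna-ps2, and reads aligned to more than 1 place were tallied apart (18.4 to 28.5% of each library), so the Pcna level is uncertain. Rfc4 (ENSMUSG00000022881), a subunit of the clamp loader, stood at 1.14, 0.927 and 0.752 CPM in the untreated libraries, 1.84, 1.12 and 4.53 at day 1 and 4.52, 4.23 and 2.96 at day 2, then at 2.52, 2.65 and 1.92 at day 3, 3.55, 1.18 and 0.694 at day 7 and 0.434, 1.3 and 0.367 at day 14. Its day 2 and day 3 libraries lay above the untreated ones, with an edgeR adjusted p = 0.0504 at day 2, just outside the threshold. It fell 5.54-fold from day 2 to day 14 (log2 fold change -2.47, SE 0.68, edgeR adjusted p = 0.0287), by 2.47 on the log2 scale and by 3.26 without day 14 replicate 2, and the call was lost without day 2 replicate 1 or 2 or day 14 replicate 1 or 3 (adjusted p 0.0623 to 0.114).

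The other clamp loader subunits and the single-strand binding subunit were not called. Rfc3 (ENSMUSG00000033970) stood at 0.109, 1.07 and 0.626 CPM in the untreated libraries, 2.58, 3.24 and 1.89 at day 1 and 2.18, 0.676 and 0.538 at day 2, then at 0.498, 0.947 and 0.813 at day 3, 1.32, 1.32 and 0.937 at day 7 and 1.17, 0.568 and 2.16 at day 14. Only its day 1 libraries lay wholly above the untreated ones (log2 fold change 2.05, edgeR adjusted p = 0.0819). Rfc5 (ENSMUSG00000029363) stood at 3.48, 3.78 and 3.13 CPM in the untreated libraries, 3.63, 8.23 and 6.44 at day 1 and 5.89, 5.58 and 5.07 at day 2, then at 6.6, 4.39 and 4.85 at day 3, 4.05, 5.31 and 4.86 at day 7 and 4.34, 2.35 and 4.52 at day 14. Libraries of days 2, 3 and 7 lay above the untreated ones, with log2 fold changes of 0.67, 0.61 and 0.45. Rpa2 (ENSMUSG00000028884), a subunit of the protein that coats single-stranded DNA, stood at 4.24, 1.26 and 0.689 CPM in the untreated libraries, 2.67, 2.36 and 2.03 at day 1 and 1.67, 2.03 and 1.92 at day 2, then at 0.697, 1.1 and 3.23 at day 3, 7.27, 0.641 and 1.08 at day 7 and 1.21, 3.12 and 0.897 at day 14. Its highest values were untreated replicate 1 and day 7 replicate 1, and every day overlapped the untreated range. For Fen1 (ENSMUSG00000024742), the antisense gene Gm10143 covers 78.8% of its exon bases, so its count of 3 reads in all says little about its level.

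Nucleotide supply was led by Rrm2 (ENSMUSG00000020649), the small subunit of ribonucleotide reductase, whose amount limits the enzyme in S phase. Rrm2 stood at 0.87, 0.547 and 0.0626 CPM in the untreated libraries, 7.17, 3.76 and 3.92 at day 1 and 16.6, 16.1 and 6.69 at day 2, then at 10.3, 5.99 and 23.5 at day 3, 1.91, 1.57 and 1.35 at day 7 and 1.56, 0.973 and 2.36 at day 14. Every treated library lay above all 3 untreated ones, with the highest value in day 3 replicate 3, and libraries of days 7 and 14 lay below all those of days 1 to 3. It rose 9.72-fold at day 1 (log2 fold change 3.28, SE 0.66, edgeR adjusted p = 0.00312), 25.7-fold at day 2 (edgeR adjusted p = 0.000214) and 26.2-fold at day 3 (edgeR adjusted p = 0.000436), with a log2 fold change of 4.71 at day 3 and 4.0 without day 3 replicate 3. Rrm2 fell 8.09-fold from day 2 to day 7 (edgeR adjusted p = 0.0106), a call lost without day 7 replicate 2 (adjusted p 0.0512). Rrm1 (ENSMUSG00000030978), the large subunit of the same enzyme, stood at 2.56, 3.59 and 3.76 CPM in the untreated libraries, 8.14, 6.05 and 5.71 at day 1 and 13.2, 8.11 and 11.9 at day 2, then at 8.86, 4.24 and 6.19 at day 3, 2.4, 6.59 and 3.68 at day 7 and 3.04, 3.37 and 10.5 at day 14. Libraries of days 1, 2 and 3 lay above the untreated ones, and it rose 3.37-fold at day 2 (log2 fold change 1.75, SE 0.50, edgeR adjusted p = 0.0246), a call lost without any untreated library or day 2 replicate 1 or 3 (adjusted p 0.0551 to 0.104). Tk1 (ENSMUSG00000025574), the thymidine kinase of S phase, stood at 3.15, 4.28 and 5.2 CPM in the untreated libraries, 12.9, 7.67 and 5.31 at day 1 and 10.4, 9.3 and 12.4 at day 2, then at 10.4, 10.6 and 8.47 at day 3, 20.9, 7.13 and 7.08 at day 7 and 5.68, 2.96 and 10.4 at day 14. Libraries of days 1, 2, 3 and 7 lay above the untreated ones, with day 7 replicate 1 far above the rest, and no day was called (edgeR adjusted p = 0.0781 at day 2 and 0.0731 at day 7).

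Of the chromatin genes, Uhrf1 (ENSMUSG00000001228) had the smallest p-value of the 38 genes at days 1, 2 and 3. Its protein binds hemimethylated DNA behind the fork and brings the maintenance methyltransferase Dnmt1 there. Uhrf1 stood at 0.272, 0.285 and 0.501 CPM in the untreated libraries, 7.96, 3.76 and 6.84 at day 1 and 16.3, 8.62 and 9.07 at day 2, then at 6.5, 2.5 and 4.07 at day 3, 1.74, 1.18 and 1.14 at day 7 and 1.13, 1.09 and 1.51 at day 14. Every treated library lay above all 3 untreated ones, and libraries of days 7 and 14 lay below all those of days 1 to 3. It rose 17.7-fold at day 1 (log2 fold change 4.15, SE 0.52, edgeR adjusted p = 4.97e-05), 32.7-fold at day 2 (log2 fold change 5.03, SE 0.54, edgeR adjusted p = 9.67e-06), 12.5-fold at day 3 (edgeR adjusted p = 0.000304) and 3.9-fold at day 7 (edgeR adjusted p = 0.0213). The day 7 call was lost without untreated replicate 1 or 2 or day 7 replicate 1 (adjusted p 0.0867 to 0.102). It fell 9.13-fold from day 2 to day 14 (edgeR adjusted p = 0.000584), and at day 14 stood at 1.24 ± 0.23 CPM against 0.353 ± 0.129 untreated, which was not called (edgeR adjusted p = 0.0718).

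Chaf1a and Chaf1b encode subunits of the factor that loads histones onto new DNA. Chaf1a (ENSMUSG00000002835) stood at 0, 0.119 and 0 CPM in the untreated libraries, 0.219, 0.135 and 1.07 at day 1 and 0.611, 2.03 and 0.961 at day 2, then at 1.46, 0.0758 and 1.6 at day 3, 0.0329, 0.214 and 0.312 at day 7 and 0.173, 0.0405 and 0.122 at day 14. Its day 1 and day 2 libraries lay above the untreated ones, which held 5 reads in all, each of them in replicate 2. It rose 20.5-fold at day 2 (log2 fold change 4.36, SE 1.32, edgeR adjusted p = 0.0352), a call lost without untreated replicate 1 or 3 or day 2 replicate 2 or 3 (adjusted p 0.0544 to 0.12). Without untreated replicate 2 the untreated group held no read, and the fitted log2 fold change of 8.04 then depends on the prior count. Exons of Ubxn6 on the other strand cover 52.5% of Chaf1a exon bases. Chaf1b (ENSMUSG00000022945) stood at 0.381, 1.28 and 1.19 CPM in the untreated libraries, 2.23, 1.48 and 1.77 at day 1 and 3.02, 6.08 and 1.42 at day 2, then at 0.896, 2.58 and 2.36 at day 3, 1.74, 1.32 and 0.902 at day 7 and 1.73, 0.973 and 0.937 at day 14. The day 1 and day 2 libraries lay above the untreated ones, without a call (edgeR adjusted p = 0.0613 at day 2).

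None of the 3 genes that control the step into S phase was called on any day. E2f1 (ENSMUSG00000027490), the transcription factor that activates many replication genes, stood at 0.544, 1.71 and 1.82 CPM in the untreated libraries, 2.19, 2.56 and 2.15 at day 1 and 3.55, 4.39 and 2.96 at day 2, then at 1.63, 2.39 and 1.84 at day 3, 0.954, 1.71 and 1.77 at day 7 and 2.34, 1.09 and 1.26 at day 14. Its day 1 and day 2 libraries lay above the untreated ones (log2 fold change 1.40, edgeR adjusted p = 0.078 at day 2). Ccne1 (ENSMUSG00000002068), a cyclin E gene, stood at 0, 0.452 and 0.0626 CPM in the untreated libraries, 1.4, 0.27 and 0.139 at day 1 and 0.571, 0.845 and 0.269 at day 2, then at 0.332, 0.227 and 3.94 at day 3, 0.164, 0.392 and 0.0694 at day 7 and 0.0867, 0.0405 and 0.163 at day 14. Each day overlapped the untreated range, and its highest value, in day 3 replicate 3, lay far above the other 2 of that day. Ccne2 (ENSMUSG00000028212), the other cyclin E gene, stood at 1.69, 2.66 and 10.3 CPM in the untreated libraries, 4.85, 4.75 and 4.95 at day 1 and 2.79, 1.69 and 2.34 at day 2, then at 3.52, 2.65 and 2.52 at day 3, 1.28, 4.42 and 3.05 at day 7 and 1.82, 1.7 and 1.71 at day 14. Its highest value was untreated replicate 3, so every day overlapped the untreated range, and the log2 fold change was -1.07 at day 2 and -1.48 at day 14 (edgeR adjusted p = 0.24 and 0.206).

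Day 2 replicate 2 carried the highest value of all 18 libraries for 9 of the 38 genes. Within day 2 it was the highest for 16 genes and the lowest for 14. Mcm2, Mcm6 and Mcm7 made up 52.9% of its summed level of 335 CPM. Without these 3 genes, which had the highest levels in it, the sums of the day 2 libraries were 185, 158 and 159 CPM. Replicate 2 was then nearly equal to replicate 3. Its TMM factor of 0.682 was the lowest of the 18 libraries, against 1.08 and 1.06 for day 2 replicates 1 and 3. A smaller factor makes each read count for more CPM, and how far its sum of 335 CPM depends on this scaling was not tested.

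With that library left out, 10 of the 37 genes still rose at day 2 and none fell, where 4.82% of all genes tested were called higher and 4.03% lower. The genes that lost the call were Mcm7, Prim1, Pole and Chaf1a. The log2 fold change of Mcm7 went from 2.82 to 1.45 (edgeR adjusted p = 0.0589) and that of Chaf1a from 4.36 to 3.8 (edgeR adjusted p = 0.0977). For Prim1 it went from 1.51 to 1.34 (edgeR adjusted p = 0.0545) and for Pole from 1.92 to 1.88 (edgeR adjusted p = 0.0938). The 10 that stayed called were Mcm2, Mcm3, Mcm4, Mcm6, Cdc45, Pola1, Lig1, Rrm1, Rrm2 and Uhrf1, with Uhrf1 at 5.18 and Mcm6 at 4.77. The median log2 fold change of the 37 genes went from 1.61 to 1.43. The highest group mean fell on day 2 for 16 genes in place of 17.

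**Figure D4:**
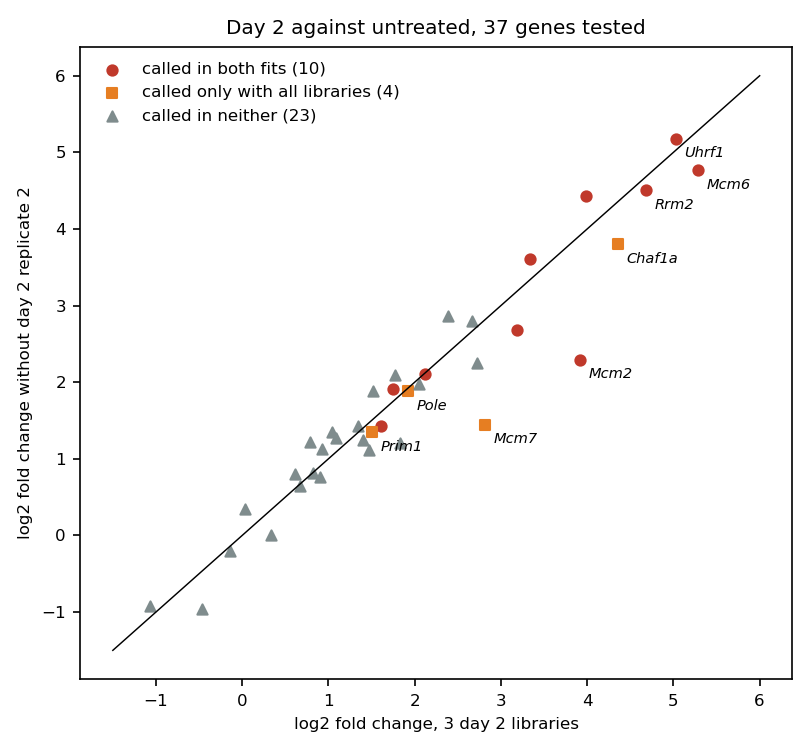
log2 fold change of the 37 genes at day 2 against untreated with all 3 day 2 libraries (x axis) and without replicate 2 (y axis), the line marking equal values. Circles are the 10 genes called in both fits, squares the 4 called only with all libraries, and triangles the 23 called in neither, and Mcm2 and Mcm7 lie farthest below the line.

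Fewer falls from day 2 were called without this library, over all genes as well. Of the replication genes, 4 fell from day 2 to day 7 in place of 5, where 1.14% of all genes fell, and the change of Mcm7 went from -2.31 to -0.94 on the log2 scale (edgeR adjusted p = 0.305). To day 14, 5 genes fell in place of 10, where 2.53% of all genes fell. Those that lost the call were Mcm6, whose log2 fold change went from -2.60 to -2.09, Lig1 (-2.20 to -1.70), Prim1 (-1.34 to -1.19), Pole (-2.30 to -2.26) and Rfc4 (-2.47 to -2.41). The median log2 fold change of the 37 genes to day 14 was -1.45 with this library and -1.48 without it. From day 1 to day 2 no gene was called with or without it.

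Other genes of the pathway, from lists that were also chosen with earlier results known, were also called on some of the same days. Of 50 other replication genes, of which 48 were tested, 7 rose and 1 fell at day 1, 10 rose at day 2, 6 at day 3 and 1 rose and 1 fell at day 7, with median log2 fold changes of 0.67, 0.73, 0.49 and 0.14. Of all genes tested, 5.09, 7.19, 4.18 and 3.87% were called higher on these days, and 5.56, 5.98, 3.43 and 3.85% lower. The day 7 counts of this list did not exceed those shares. The largest rises at day 2 were those of Dtl, which targets Cdt1 for destruction in S phase (log2 fold change 4.08, SE 0.79, edgeR adjusted p = 0.00214), and of the checkpoint adaptor gene Clspn (3.25, edgeR adjusted p = 0.0186). Esco2, which ties sister chromatids together, and Pold1, the catalytic subunit of the lagging strand polymerase delta, followed at 2.95 and 2.85. Without day 2 replicate 2, 11 of these genes rose at day 2, where 4.82% of all genes tested did.

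Of 25 other genes of G1 and S phase control, 4 rose and 1 fell at day 1, 7 rose at day 2, 4 at day 3 and 2 at day 7. Of all genes tested, 5.09, 7.19, 4.18 and 3.87% were called higher on these days, and 5.56% lower at day 1. The largest at day 2 were the repressor gene E2f8 (log2 fold change 4.10, edgeR adjusted p = 0.0122), the growth regulator Myc (3.76, edgeR adjusted p = 0.000193), the S phase cyclin gene Ccna2 (3.49, edgeR adjusted p = 0.000452) and the G1 kinase gene Cdk6 (1.97, edgeR adjusted p = 0.000698). Rbl2, a relative of the retinoblastoma protein, fell at day 1 (-0.82, edgeR adjusted p = 0.0303). Without day 2 replicate 2, 5 rose at day 2, where 4.82% of all genes tested did.

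The 30 mitosis genes had their highest median log2 fold change on day 2, as the replication genes did. Of these 6 rose on day 1, 26 on day 2, 15 on day 3 and 8 on day 7, and none was called on day 14. Of all genes tested, 5.09, 7.19, 4.18, 3.87 and 1.24% were called higher on these days. Their median log2 fold changes were 1.14, 3.65, 2.92, 1.5 and 0.87, against 1.41, 1.61, 0.96, 0.51 and 0.20 for the 37 replication genes. From day 1 to day 2, 3 mitosis genes rose, where 0.0416% of all genes did, and none did without day 2 replicate 2. At day 2 against untreated 23 rose without that library, where 4.82% of all genes tested did. The largest at day 2 were the kinetochore motor gene Cenpe (log2 fold change 8.84, edgeR adjusted p = 0.000504), Ska1 (6.17), Ccnb2 (5.89) and Cdc20 (5.83). Mki67, the gene of the proliferation antigen Ki-67, rose by 1.58 on day 1, 4.26 on day 2, 3.45 on day 3 and 1.71 on day 7 on the log2 scale, and was not called at day 14 (1.39, edgeR adjusted p = 0.0869). The difference between the lists was not tested.

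**Figure D5:**
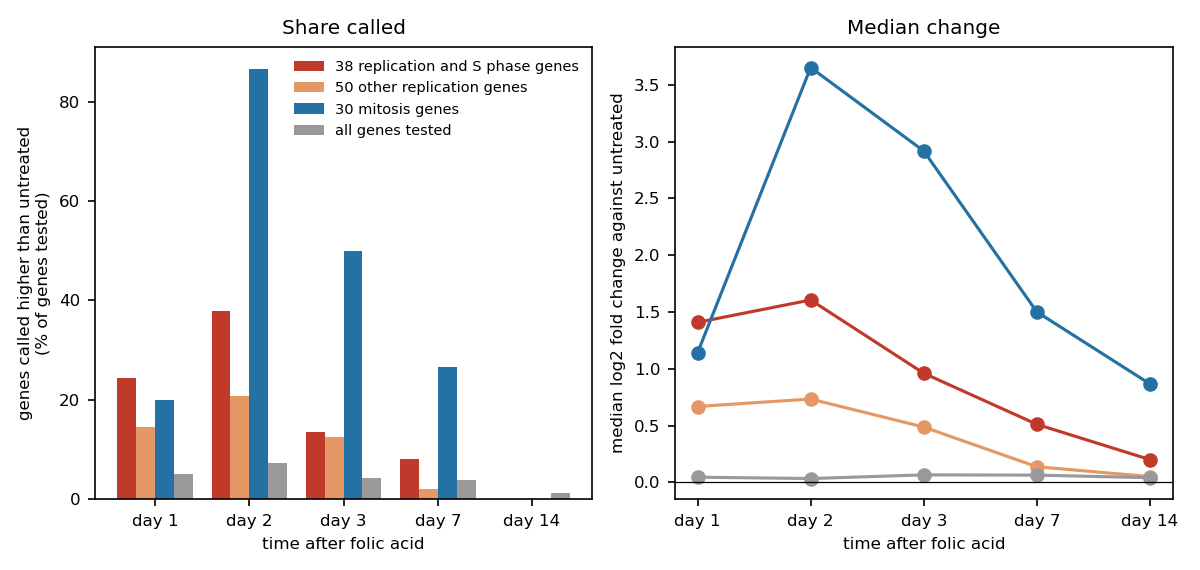
Left, share of genes tested that were called higher than untreated (y axis, %) on each day (x axis) for the replication genes, the other replication genes, the mitosis genes and all genes tested, and right, the median log2 fold change of the same sets. The replication genes have medians of 1.41 and 1.61 at days 1 and 2, while the mitosis genes go from 1.14 to 3.65, and the bars of the 3 lists are at 0 at day 14.

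Markers of several cell types moved in the same libraries. For the marker counts below, 5.09, 7.19, 4.18, 3.87 and 1.24% of all genes were called higher on days 1, 2, 3, 7 and 14. Called lower were 5.56, 5.98, 3.43, 3.85 and 0.309%. The 8 markers of injured tubule summed to 21.8 to 33.7 CPM in untreated kidney, with none at 0. The sums were 2485 to 2586 (day 1), 1247 to 1476 (day 2), 567 to 1139 (day 3), 372 to 413 (day 7) and 99.6 to 225 CPM (day 14). The sum was highest at day 1, but the median log2 fold change of the 8 was highest at day 3 (4.28, 5.07, 5.28, 4.18 and 2.38 on the 5 days), and 7 of the 8 rose at each of days 1, 2, 3 and 7. Havcr1, which encodes kidney injury molecule 1, had log2 fold changes of 7.15, 5.76, 4.74, 3.33 and 1.01 on the 5 days. The 8 markers of healthy proximal tubule summed to 4976 to 5498 CPM in untreated kidney. They were lower after folic acid, at 1055 to 1273 (day 1), 1537 to 1641 (day 2), 1946 to 2510 (day 3), 1374 to 1947 (day 7) and 1830 to 4023 CPM (day 14). Of the 8, 7 fell at each of days 1, 2 and 7, 6 at day 3 and 1 at day 14. The 6 markers of the loop of Henle and distal tubule summed to 1626 to 2251 CPM in untreated kidney, 208 to 394 (day 1), 265 to 375 (day 2), 457 to 797 (day 3), 1289 to 1455 (day 7) and 1659 to 2302 CPM (day 14). All 6 fell at days 1 and 3, 5 at day 2, 1 at day 7 and none at day 14 by edgeR. The 6 endothelial markers summed to 72.0 to 141 CPM in untreated kidney, 43.9 to 51.1 (day 1), 17.8 to 31.9 (day 2), 23.8 to 37.5 (day 3), 52.1 to 80.4 (day 7) and 71.8 to 103 CPM (day 14), with 3, 4, 5, 1 and 0 of them called lower. The mean sum was lowest at day 2 for these 6 markers, for loop of Henle and distal tubule and for podocyte markers. It was lowest at day 1 for proximal tubule and collecting duct markers. Of the 6 collecting duct markers 3 fell at day 1, 3 at day 2 and 1 at day 3, and of the 5 podocyte markers 2 fell at day 2, 1 at day 3 and 1 at day 7. Their part in the replication gene levels was not tested.

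Blood and immune cells can divide and carry replication transcripts. The 8 macrophage and monocyte markers summed to 21.9 to 44.5 CPM untreated. Later sums were 51.2 to 73.9 (day 1), 41.6 to 45.1 (day 2), 68.5 to 124 (day 3), 106 to 180 (day 7) and 65.9 to 141 CPM (day 14), with the highest mean at day 7. Of the 7 tested, 2 rose and 1 fell at each of days 1 and 2, and 5 rose at each of days 3, 7 and 14. Of the 6 erythroid precursor markers the sum was 35.0 to 44.0 CPM untreated, 71.8 to 93.7 at day 1 and 26.3 to 56.0 at day 2. It was 18.1 to 22.9 at day 3, 8.95 to 16.2 at day 7 and 15.4 to 47.2 at day 14. The 8 T and natural killer cell markers summed to 2.59 to 16.4 CPM untreated, 1.63 to 2.89 at day 1 and 1.5 to 7.44 at day 2, with Nkg7 at 0 on both days and Klrb1c at 0 at day 1. At days 3, 7 and 14 their sums lay between 3.57 and 4.94. The 6 B and plasma cell markers reached 0.338 to 1.27 CPM at day 2, with Jchain at 0, against 0.761 to 4.35 untreated, with Ms4a1 at 0. Their sums were 0.875 to 1.88 at day 1, 0.763 to 2.27 at day 3, 1.84 to 4.17 at day 7 and 1.43 to 2.17 CPM at day 14. Of the 2 tested, 1 fell at day 2, where 5.98% of all genes fell, and neither was called against untreated on another day. The 6 neutrophil markers reached 0.169 to 0.775 CPM at day 2, with Elane and Retnlg at 0, against 0.143 to 0.761 untreated, with Elane at 0. Their sums were 0.962 to 1.75 at day 1, wholly above untreated. They were 0.262 to 0.644 at day 3, 0.46 to 2.49 at day 7 and 0.26 to 1.43 CPM at day 14. Of the 2 neutrophil markers tested, none was called against untreated on any day. Sums of the 7 fibroblast and myofibroblast markers were 31.1 to 56.1 CPM untreated, 51.3 to 116 at day 2 and 146 to 319 at day 14. Their calls were mixed, with 2 higher and 1 lower at day 1 and 3 higher and 2 lower at day 2. At days 3, 7 and 14, 2, 3 and 2 were higher and none was lower. The part of these cells in the replication gene levels was not tested.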

How the data were processed

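RNA from 18 kidney libraries was sequenced after amplification of 10 ng total RNA per sample. Per the submitters' processing notes, the tools were cutadapt, TopHat2 2.07, HTSeq and DESeq, on mouse build NCBIM37. The deposited raw table holds counts of reads per gene for 37991 identifiers, with 5 tallies of reads given to no gene, and the authors' normalized table was not used. Whether counting used strand is not given in the sources used here. Symbols came from GENCODE M21 for 32919 identifiers, and 5072 had none.

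The quasi-likelihood F test of edgeR 4.0.16 was run on the counts of all 18 libraries in 1 fit, after filterByExpr and TMM scaling, with group as the only term, and p-values were Benjamini-Hochberg adjusted over 16824 genes. The standard error (SE) is the log2 fold change over the square root of F. CPM and means ± SD were computed from the counts. The tally of reads in no gene was 13.8 to 23.6% of each library, and stayed out of library sizes and tests. No library of a group was a copy of another, with at least 38 chi-square units per degree of freedom between any 2.

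Values in every library are given for genes with the largest or smallest called change in a role, genes never called and genes whose day 2 call ended without day 2 replicate 2, and here for all 38. Of the comparison lists, up to 4 with the largest called change are named. The members, lists and tests were chosen with earlier results of these data known. As alternatives, other scalings, no filter, DESeq2 1.42.0, a fit to only the groups compared, a fit without mitochondrial genes, a replicate block and the omission of each library were tried. Fits on fewer libraries applied the filter and scaling anew. Values of a few single genes of the comparison and marker lists are not reported here. R 4.3.3 ran the tests, and Python 3.11.15 (pandas 2.3.3, matplotlib 3.10.9) the sequence search and plots.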

Additional observations from a re-analysis of the deposited data

How the results depend on the processing

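Of 46 called changes of single genes, none turned its direction under any alternative run. Calls were lost for 3 with relative log expression scaling, 4 with library totals alone, 2 without mitochondrial genes, 6 with no low-count filter, 5 with a replicate block, none with DESeq2, and 21 with a fit to only the groups compared, which has fewer samples. The number of replication genes called went from 5 to 14 (library totals) and 9 (DESeq2) at day 3, from 3 to 11 (library totals), 7 (DESeq2) and 1 (only the groups compared) at day 7, and from 0 to 2 (library totals), 1 (no filter) and 3 (DESeq2) at day 14. The share of all genes called also went up, from 7.61% to 13.3% (library totals) and 12.5% (DESeq2) at day 3. It went from 7.72% to 15.2 and 12.1% at day 7, and from 1.55% to 2.59 and 5.66% at day 14. With only the groups compared it was 9.75% at day 7, and with no filter 1.74% at day 14. Library totals moved the median log2 fold change of all genes to 0.19 (day 1), 0.28 (day 2), 0.64 (day 3), 0.74 (day 7) and 0.36 (day 14), where it had been 0.03 to 0.07. The share of all called genes that were higher then went from 54.6 to 69.0% at day 2, from 54.9 to 91.2% at day 3, from 50.2 to 93.2% at day 7, from 80.0 to 95.9% at day 14 and from 53.1 to 87.3% from day 2 to day 7. With no filter and with DESeq2 the count went from 0 to 1 and 2 from day 1 to day 2, to 2 and 4 from day 2 to day 3, and to 1 and 2 from day 3 to day 7. Over these steps the share of all genes called went from 0.0594% to 0.901 and 3.07%, from 0.25% to 1.41 and 4.45%, and from 0.0178% to 0.174 and 1.25%. From day 2 to day 7 it went from 5 to 9 (DESeq2) and 3 (only the groups compared), and from day 2 to day 14 from 10 to 16 and 2. DESeq2 called 23 across the 6 groups in place of 11. For the counts from day 2 to day 7, from day 2 to day 14 and across the groups, the share of all genes in these fits is not given here. Those counts cannot be read as a change particular to the replication genes. The causes were not tested.

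Leaving out 1 library gave 3 to 10 genes (day 1), 9 to 16 (day 2), 4 to 6 (day 3), 1 to 4 (day 7) and 0 to 2 (day 14). The share of all genes called changed as well, as given above for several of these fits. It gave 0 to 1 from day 1 to day 2, 0 to 2 from day 2 to day 3, 3 to 6 from day 2 to day 7, 5 to 11 from day 2 to day 14, 10 to 12 across the groups, and 0 for the other steps. Same-numbered libraries did not deviate together (45 pairs, correlations from -0.0543 to 0.0416), so the numbers show no pairing. The 5 calls that missed the threshold with a replicate block were Orc6, Mcm3 and Prim1 at day 1, Mcm3 at day 3 and Mcm7 from day 2 to day 7 (edgeR adjusted p 0.0551 to 0.0777). With it 6 (day 1), 14 (day 2), 4 (day 3), 3 (day 7) and 0 genes (day 14) were called, 4 from day 2 to day 7, 10 from day 2 to day 14 and 10 across the groups. Against untreated, the fit with this block called 9.34, 11.3, 6.18, 6.41 and 1.15% of all genes on the 5 days. How far depth limits single genes was not tested.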
